A study of Saccharomyces cerevisiae with 8 samples.

Results

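The flocculin genes of Saccharomyces cerevisiae measured here were FLO1 (YAR050W), FLO5 (YHR211W), FLO9 (YAL063C), FLO10 (YKR102W) and FLO11 (YIR019C), together with FLO8 (YER109C), which encodes a transcription factor that activates several of them. They were picked by systematic name and make up 6 of the 6256 genes with a probe on the array. Each had 1 probe, printed in 2 spots, and all 6 were among the 5938 genes bright enough to be tested. FLO1 and FLO9 lie on chromosome I, FLO5 on chromosome VIII, FLO10 on chromosome XI, FLO11 on chromosome IX and FLO8 on chromosome V, per the RefSeq gene table, which lists FLO8 as a pseudogene.

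Flocculins are large, heavily glycosylated proteins anchored in the yeast cell wall. FLO1, FLO5, FLO9 and FLO10 sit near chromosome ends, and their products bind mannose chains on neighbouring cells, so that cells clump and settle. FLO11 (also called MUC1) encodes the wall mucin needed for invasive and filamentous growth, for sticking to surfaces and for biofilms, and its long promoter takes input from cAMP and protein kinase A, the filamentation MAP kinase cascade and glucose repression. FLO8 acts below protein kinase A on FLO1 and FLO11. The lineage of BY4741 carries a nonsense mutation in FLO8 and does not flocculate or form filaments.

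RNA was compared at the start (T0h) and after 6 h (T6h) of a fermentation assay on 8 two-colour Agilent arrays. At T6h there were 2 samples of CAT-1, 2 of JP1 and 1 of BY4741, and at T0h there was 1 sample each of CAT-1, JP1 and PE-2. Per the labels, CAT-1 and PE-2 are heterothallic diploids and JP1 is a homothallic diploid, each from a Brazilian ethanol mill, and BY4741 is a laboratory strain from a public collection. BY4741 is known as a haploid that needs added nutrients through deletions of HIS3, LEU2, MET17 and URA3. The inoculum came from successive batch cultures in YPD, a rich medium with glucose, and each sample (Cy5, red) was hybridised against BY4741 RNA of T0h (Cy3, green). PE-2 was therefore seen at T0h alone, BY4741 as a sample at T6h alone, and ratios below are log2 ratios to BY4741 at T0h.

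The arrays lay on 2 slides. On slide 1, 89.9% to 91.3% of gene probes were well above background in green, against 20.8% and 11.2% on slide 2, where the second T6h arrays of CAT-1 (replicate 5) and JP1 (replicate 4) lay. In red the share was 81.9% to 98.3% on all arrays, and the dimmest red channels were those of the CAT-1 T6h arrays, with medians of 60 and 83. On the BY4741 array the deletion markers were at the level of the negative controls (red signals of 25.5 to 28.5 against a control median of 25.5), while on the 7 industrial arrays they were at 71.25 or more. In the deposited value table, 3 of 8 columns followed best the array they are named for, and the columns named JP1 T0h and CAT-1 T0h followed the JP1 and CAT-1 arrays labelled T6h instead (Spearman 0.9995 and 0.9997 over genes). The CAT-1 T6h replicate 2 column followed the JP1 T0h array best (0.908), and that of JP1 T6h replicate 1 the BY4741 T6h array (0.894, against 0.867 for its own). The PE-2 T0h column followed no array closely (0.280 at best). Times and strains here follow the labels of the scanner files. The slide 2 arrays, for which file and column agree, had Spearman correlations of 0.390 to 0.694 with the slide 1 files labelled T6h and of 0.0797 to 0.143 with those labelled T0h (6 pairs each), so the ratios group by the times of the scanner files. Which industrial strain each array holds, PE-2 included, was not tested. The labels do not say that samples came from separate cultures, so p-values here reflect the spread between arrays, which may be technical.

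The spots themselves were dim but measurable. The plot of red and green signals gives each probe's brightness on each array. The red channel, which holds the sample, was well above background for every flocculin gene on every array, with the exception of FLO1 in PE-2 at T0h, where neither spot was. On slide 1 the green reference spanned 119.75 to 151.5 for FLO1, 447.5 to 521.25 for FLO5, 92.5 to 138.5 for FLO9, 173.5 to 204.75 for FLO10, 101 to 122 for FLO11 and 364.5 to 414.5 for FLO8. Green negative controls on that slide read 64 to 77. The references of FLO9, FLO11 and FLO1 were thus not far above the controls, which limits their ratios on slide 1 as well. On slide 2 the green signals of these genes were 712 to 965, where negative controls read 773 and 766, and none of their spots was well above background. The 2 spots of a probe differed there by up to 1.37 on the log2 scale (FLO11 in JP1 T6h replicate 4). The ratios of these 2 arrays thus rest on a red signal over an unmeasured reference, and time and strain differences that use them are also given on slide 1 alone where that could be fitted. FLO9 also lacked a measured reference on JP1 T6h replicate 1.

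**Figure D1:**
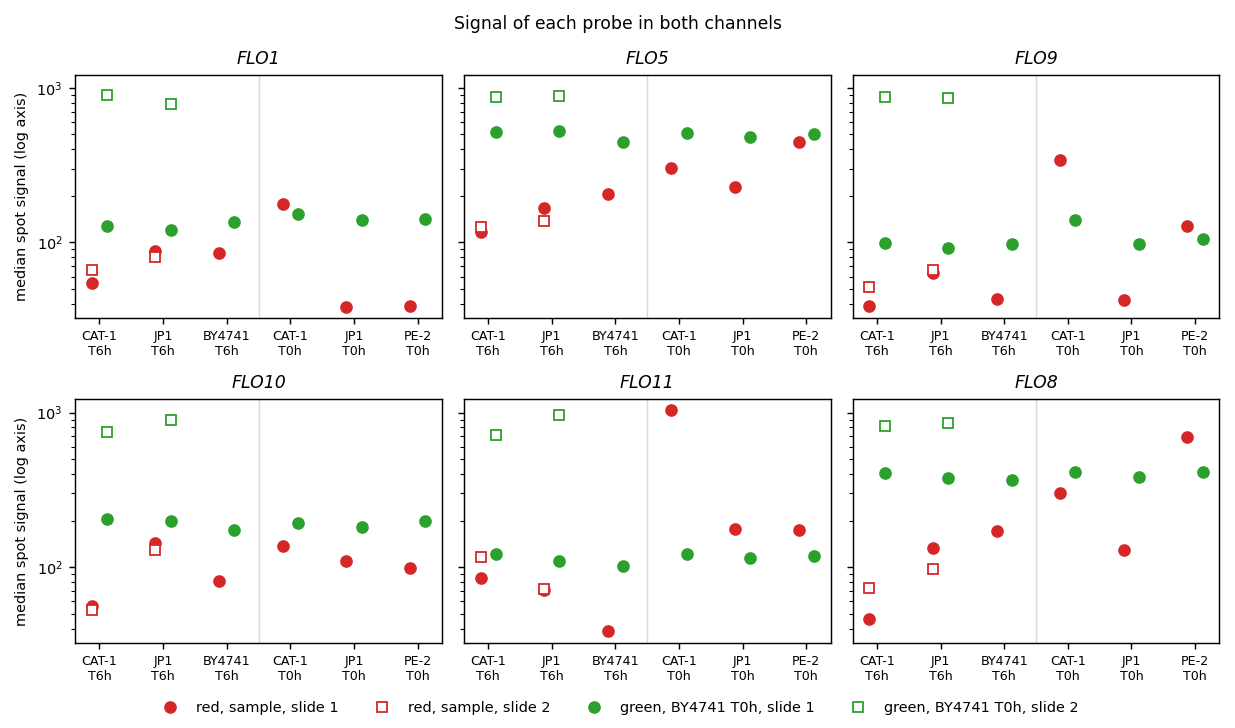
Median spot signal of each flocculin probe and of FLO8 (vertical, log axis, mean of 2 spots) on the 8 arrays, T6h left of T0h, with red points for the sample and green points for the BY4741 T0h reference, filled on slide 1 and open on slide 2. The green points on slide 2 lie between 712 and 965 for every gene, near the negative controls of that slide.

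FLO11 had the widest range of the 6 genes. It was high in CAT-1 at both times, high in JP1 at T0h and near or below the BY4741 T0h level in JP1 and BY4741 at T6h. At T6h its log2 ratio was 1.58 and 1.83 in CAT-1 (replicates 2 and 5), 0.15 and -1.31 in JP1 (replicates 1 and 4) and -0.25 in BY4741. At T0h it was 2.82 in CAT-1, 1.40 in JP1 and 0.38 in PE-2. The red signal of CAT-1 at T0h, 1033, was the strongest that the FLO11 probe gave, against 175.5 in JP1 and 172.5 in PE-2. At T6h the raw red signals were 84.5 and 115.5 in CAT-1, 70.5 and 72.5 in JP1 and 38.5 in BY4741. The CAT-1 T6h arrays had the dimmest red channels, and FLO11 was below its green signal there. Their FLO11 ratios thus lie above 0 only after each array was normalised. On the CAT-1 T0h array the FLO11 ratio stood at the 99.8th percentile of all genes tested, and on the CAT-1 T6h arrays at the 94.1st and 96.6th.

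In the order of FLO11 ratios, CAT-1 at T0h came highest, followed by CAT-1 at T6h, JP1 at T0h, PE-2 at T0h, BY4741 at T0h (0 by construction), BY4741 at T6h and JP1 at T6h. The 2 JP1 T6h arrays lay on either side of BY4741 at both times, so these neighbours did not differ beyond the spread between arrays. JP1 at T0h lay closer to the nearer CAT-1 T6h array than the 2 CAT-1 T6h arrays lay to each other. The T0h samples and BY4741 at T6h had 1 array each and no spread of their own. By the scanner software's own ratios, CAT-1 T6h replicate 2 came above CAT-1 at T0h (4.23 against 3.95).

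By the ratios used here, FLO11 was lower at T6h than at T0h within each strain. With strain as a term, JP1 and CAT-1 at T6h were below the same strains at T0h by -1.55 ± 0.42 on the log2 scale (SE, 4 arrays against 2; 95% interval -2.47 to -0.63, 2.92-fold; limma adjusted p 0.0250). Each T6h array lay below its own strain at T0h, by -1.24 and -0.99 in CAT-1 and by -1.25 and -2.71 in JP1. By the scanner software's own ratios, CAT-1 T6h replicate 2 lay above CAT-1 at T0h (4.23 against 3.95), and CAT-1 T6h replicate 5 below (1.24). The JP1 T6h arrays were below JP1 at T0h there too (0.45 and -0.02 against 2.53). With red signals normalised by quantiles, log2 values in CAT-1 were 9.05 at T0h and 8.83 and 8.78 at T6h. FLO11 was the only flocculin gene called for time in JP1 and CAT-1, where 19.7% of all genes were called, 12.7% higher and 6.96% lower. The 16 alternatives include scaling the arrays to a common brightness (Aquantile), which leaves ratios as they are. They also include keeping marked spots, of which FLO11 had none, and dropping the filter on dim probes, which leaves its ratios unchanged. The call held in 6 of them, and on slide 1 alone (-1.24, adjusted p 0.0437). It was lost without CAT-1 at T0h (-1.98, adjusted p 0.0683), without JP1 at T0h (-1.12, 0.342) and without either CAT-1 T6h array (-1.55 and -1.66, 0.0564 and 0.0510), over alternatives whose adjusted p ran between 0.00552 and 0.342. It was lost too with the software's signals (-1.77, 0.212), median centring (-1.48, 0.211), an offset of 16 (-1.60, 0.111) and the slide as a block (-1.24, 0.0952). With the red channel alone, a setting chosen after the data were seen, the difference was -0.59 (adjusted p 0.0664).

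Between the strains, FLO11 was higher in CAT-1 than in JP1 at both times and on all arrays. With time as a term the difference was 2.00 ± 0.39 (SE, 3 arrays each; 95% interval 1.13 to 2.87), which is 4.00-fold. The 3 CAT-1 ratios, 1.58 to 2.82, lay above the 3 JP1 ratios, -1.31 to 1.40, as did the groups of 5.78% of all genes in that direction. The unadjusted p was 0.000374 and the adjusted p 0.0795, so the difference was not called in a comparison where 6 genes, or 0.101%, were, and 15.2% had an unadjusted p under 0.05. It was called with the red channel alone (1.83, adjusted p 0.00715) and without JP1 T6h replicate 1 (2.34, 0.0350), over alternatives with an adjusted p of 0.00715 to 0.687. The red channel setting was added after the data were seen and called many more genes in this comparison. On slide 1 alone the FLO11 difference was 1.43 ± 0.28 (adjusted p 0.421). The red signals normalised by quantiles were 8.83 and 8.78 on the log2 scale in CAT-1 at T6h against 6.58 and 6.91 in JP1 at T6h, and 9.05 in CAT-1 at T0h against 7.67 in JP1 at T0h. On that scale CAT-1 T6h replicate 2, a dim array, was also the highest array for FLO1, FLO5 and FLO10, though not for FLO9 or FLO8. The time change of FLO11 differed by 0.86 ± 0.84 between CAT-1 and JP1 (limma adjusted p 0.989).

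**Figure D2:**
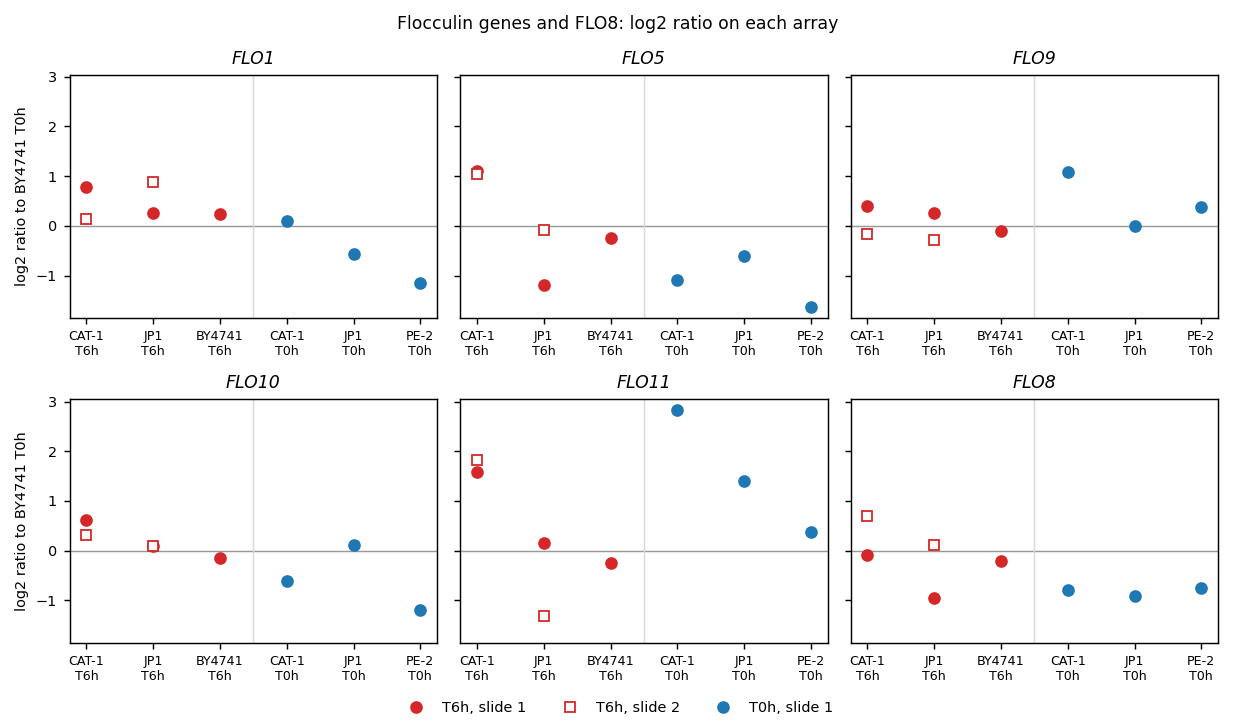
Log2 ratio of each gene to BY4741 at T0h (vertical) on the 8 arrays, 1 panel per gene, with T6h arrays in red left of T0h arrays in blue and slide 2 as open squares. FLO11 in CAT-1 lay between 1.58 and 2.82, above every JP1 value, and FLO5 in CAT-1 at T6h was at 1.11 and 1.05, above every other array.

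FLO11 was also higher in the industrial strains than in BY4741 at T0h. The mean ratio of CAT-1, JP1 and PE-2 was 1.53 ± 0.42 (SE, 3 arrays; 95% interval 0.53 to 2.54, 2.90-fold; limma adjusted p 0.0336). All 3 ratios were above 0, as for 32.0% of genes, and they ran from 0.38 in PE-2 to 2.82 in CAT-1. This test sets the ratios against 0 and leaves out the spread of BY4741 itself. Without CAT-1 the mean was 0.89 (adjusted p 0.126), and with arrays centred on their median in place of loess it was 1.20 (0.170). At T6h the industrial arrays averaged 0.56 ± 1.45 (SD, n = 4), against -0.25 in the single BY4741 array, a difference of 0.81 ± 1.02 (SE; limma adjusted p 0.769), and of 1.12 ± 0.69 on slide 1 alone (0.619).

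FLO5, a close relative of FLO1, was low in the industrial strains at T0h and high in CAT-1 alone at T6h. Its log2 ratio at T6h was 1.11 and 1.05 in CAT-1, -1.19 and -0.09 in JP1 and -0.24 in BY4741. At T0h it was -1.09 in CAT-1, -0.61 in JP1 and -1.63 in PE-2. Both CAT-1 T6h arrays lay above all others. Their raw red signals for FLO5, 116.25 and 125.75, were the lowest of the 8 arrays (up to 444 in PE-2 at T0h), on the arrays with the dimmest red channels, so these ratios lie above 0 only after each array was normalised. At T0h the 3 industrial ratios were all below 0, with a mean of -1.11 ± 0.22 (SE; 95% interval -1.64 to -0.58, 2.15-fold lower; limma adjusted p 0.0128).

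FLO5, FLO8 and FLO11 were the 3 flocculin genes called in the comparison of industrial strains with BY4741 at T0h. In it 32.7% of all genes were called, 15.2% higher and 17.5% lower. The 9 alternatives include Aquantile, which leaves ratios as they are, and keeping marked spots, of which FLO5 had none. The FLO5 difference was called in 8 of the 9 and lost without CAT-1 at T0h (-1.12, adjusted p 0.0814).

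The time change of FLO5 went apart in the strains. Against its own T0h sample, CAT-1 was higher at T6h by 2.19 and 2.14, while JP1 was at -0.59 and 0.52 and BY4741 at -0.24. The difference between the time changes of CAT-1 and JP1 was 2.20 ± 0.73 (SE; 95% interval 0.54 to 3.85), with an unadjusted p of 0.0148 and an adjusted p of 0.622. No gene was called in this comparison (0%), and 5.74% of genes had an unadjusted p under 0.05. The red channel alone, a setting added after the data were seen, did call genes in it. The FLO5 difference was called with the red channel alone (2.11, adjusted p 0.0134) and without JP1 T6h replicate 4 (2.75, 0.0464), over alternatives with an adjusted p of up to 1.00. Over both strains the time difference was 1.07 ± 0.48 (limma adjusted p 0.151), and it was -0.03 without CAT-1 at T0h and 2.16 without JP1 at T0h (adjusted p 0.0383). It was also called without JP1 T6h replicate 1 (1.46, 0.0195), and on slide 1 alone it was 0.80 ± 0.64 (0.447). The difference between time changes could not be fitted there.

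FLO1, whose product is the best studied flocculin, was lowest at T0h. Its ratio at T6h was 0.79 and 0.13 in CAT-1, 0.26 and 0.89 in JP1 and 0.23 in BY4741. At T0h it was 0.10 in CAT-1, -0.57 in JP1 and -1.15 in PE-2. All 5 T6h ratios lay above all 3 T0h ratios, as for 13.2% of genes in that direction. The nearest pair was CAT-1 T6h replicate 5 at 0.13 and CAT-1 T0h at 0.10. The former lies on slide 2, where the FLO1 reference was not well above background and its 2 spots differed by 1.25. In PE-2 at T0h the FLO1 spots were not well above background. After normalisation, with the added offset of 50 included, their signal was 1.96-fold below that of BY4741 at T0h. The log2 signal was 5.90 in PE-2, against 6.87 ± 0.15 in BY4741 (SD over 6 arrays). The raw red signal was 38.5 over a background of 23, and the scanner software's own log2 ratio was -3.81. With the PE-2 spots near background, this fold is approximate and depends on the offset.

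Over all 8 arrays, FLO1 was at 0.46 ± 0.35 at T6h (SD, n = 5), against -0.54 ± 0.62 at T0h (n = 3). The difference of 1.00 ± 0.33 (SE; 95% interval 0.28 to 1.73) had an unadjusted p of 0.0109 and an adjusted p of 0.0631, and was not called. With an offset of 16 it was 1.69 (adjusted p 0.0341), with the scanner software's own signals 2.78 (0.0487) and without CAT-1 at T0h 1.32 (0.0491), over alternatives of 0.0341 to 0.249. On slide 1 alone it was 0.97 ± 0.36 (adjusted p 0.117). Within JP1 and CAT-1 it was 0.75 ± 0.35 (limma adjusted p 0.160), and on slide 1 alone 0.76 ± 0.28 (0.138). The T6h ratios of these strains again lay above their T0h ratios, as for 21.3% of genes, with the same nearest pair of CAT-1 arrays. In JP1 and CAT-1 the red channel alone, a setting added after the data were seen, gave 0.97 (limma adjusted p 0.00685). None of the 6 genes was called over all 8 arrays, where 15.6% of all genes were, and 2 of them, FLO5 and FLO10, had an unadjusted p under 0.05 beside FLO1 (0.0296 and 0.0394), against 30.6% of all genes.

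FLO9, the other close relative of FLO1, had its highest ratio in CAT-1 at T0h. At T6h it was 0.41 and -0.17 in CAT-1, 0.26 and -0.29 in JP1 and -0.11 in BY4741. At T0h it was 1.08 in CAT-1, -0.00 in JP1 and 0.38 in PE-2. By the scanner software's own ratios, CAT-1 T6h replicate 2 was the highest instead (2.54, against 1.70 in CAT-1 at T0h). The groups overlapped in each comparison, and no difference was called: -0.49 ± 0.35 for time in JP1 and CAT-1, 0.49 ± 0.23 for the industrial strains against BY4741 at T0h and 0.45 ± 0.33 for CAT-1 against JP1 (limma adjusted p 0.368, 0.150 and 0.552). On slide 1 alone the time difference of FLO9 was -0.21 and the strain difference 0.62 (adjusted p 0.727 and 0.628). The time difference of FLO9 turned to 0.05 with the red channel alone and to 0.04 with the software's signals. FLO1, FLO5 and FLO9 have similar coding sequences, and how much of a transcript each probe shares with its relatives was not tested. Neither were the match of the probes to the alleles of the industrial strains and the number of gene copies.

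FLO10, a more distant member of the family, had its lowest ratios in PE-2 and CAT-1 at T0h and its highest in CAT-1 at T6h. At T6h its ratio was 0.61 and 0.32 in CAT-1, 0.10 and 0.09 in JP1 and -0.15 in BY4741. At T0h it was -0.61 in CAT-1, 0.12 in JP1 and -1.18 in PE-2. Against its own strain at T0h it was higher by 1.22 and 0.93 in CAT-1 at T6h, while JP1 was at -0.02 and -0.03. That difference between the time changes was 1.1 ± 0.59 (SE; 95% interval -0.22 to 2.43; limma adjusted p 0.944). Time in both strains gave 0.53 ± 0.33 (adjusted p 0.301), or 0.60 ± 0.38 on slide 1 alone (0.340), and the industrial strains against BY4741 at T0h -0.56 ± 0.26 (0.141). The difference between CAT-1 and JP1 was 0.01 (95% interval -0.69 to 0.70), which leaves room for a difference of that size either way, and -0.11 ± 0.38 on slide 1 alone (adjusted p 0.951).

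FLO8, the activator of FLO1 and FLO11, was evenly low in the industrial strains at T0h. Its ratio at T0h was -0.79 in CAT-1, -0.90 in JP1 and -0.75 in PE-2, a spread of 0.08 (SD, n = 3) around a mean of -0.82 ± 0.15 (SE from the fit, 1.76-fold lower; limma adjusted p 0.0102). At T6h it was -0.10 and 0.69 in CAT-1, -0.95 and 0.11 in JP1 and -0.21 in BY4741. These overlapped with T0h through JP1 replicate 1, and the time difference of 0.79 ± 0.39 in JP1 and CAT-1 was not called (adjusted p 0.183). Both slide 2 arrays were above their slide 1 counterpart, and on slide 1 alone the time difference of FLO8 was 0.32 ± 0.32 (adjusted p 0.547). The T0h difference rests on slide 1 arrays and was called in 8 of 9 alternatives. The FLO8 call could hardly change under 2 of these, Aquantile and keeping marked spots. The call was lost without CAT-1 (-0.83, adjusted p 0.0775).

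**Figure D3:**
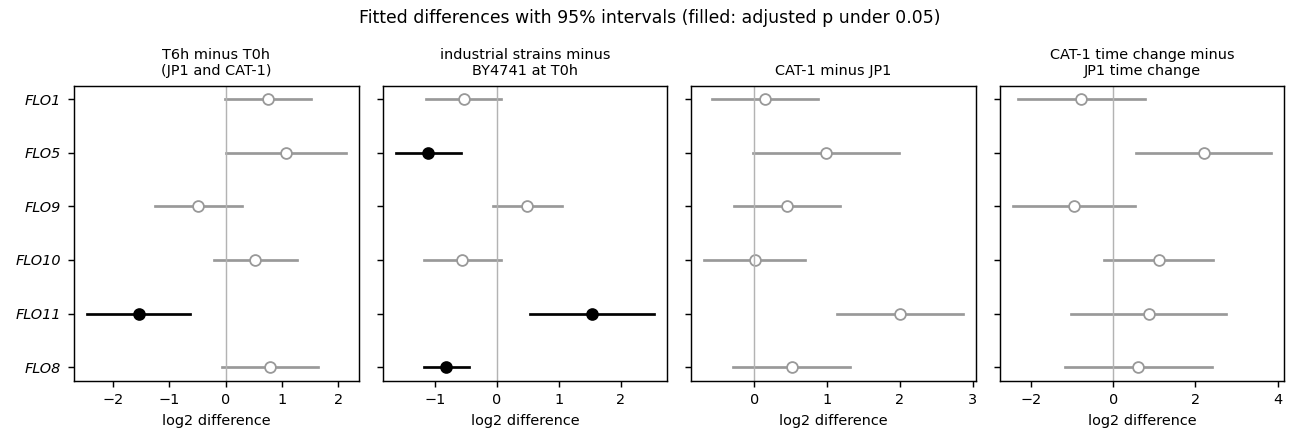
Fitted log2 differences of the 6 genes (horizontal) with 95% intervals in 4 comparisons, filled where the limma adjusted p was under 0.05. FLO11 was lower at T6h in JP1 and CAT-1 (-1.55) and higher in the industrial strains at T0h (1.53), where FLO5 (-1.11) and FLO8 (-0.82) were lower.

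Across the 6 genes the comparisons did not move as a block. The median difference was 0.64 for time in JP1 and CAT-1 and -0.55 for the industrial strains against BY4741 at T0h, where the medians of all genes were -0.00 and 0.00. These comparisons share the T0h arrays and the reference, so a low T0h value pulls the first up and the second down. FLO11 and FLO9 went against the median in both. At T6h the industrial strains were set against a single BY4741 array, assumed to vary like the others, and the differences ran from 0.14 for FLO8 to 0.81 for FLO11. None was called, as for all genes (0%, with 15.1% at an unadjusted p under 0.05). The time change in JP1 and CAT-1 against that in BY4741 was called for 6.05% of all genes and for none of the 6, with FLO5 at 1.30 ± 0.91, FLO8 at 0.99 ± 0.65 and FLO11 at -1.30 ± 1.21 (limma adjusted p 0.415, 0.387 and 0.555). On slide 1 alone these were 1.04, 0.53 and -0.995, and FLO8 at T6h turned to -0.32, none of them called. A ratio of whole cultures cannot tell fewer expressing cells from less RNA per cell.

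Several transcription factors known to act on FLO genes changed with time. Of 17 such factors, FLO8 included, 6 rose and 1 fell with time in JP1 and CAT-1 (median 0.87, against -0.00 over all genes, of which 19.7% were called). NRG1, a repressor of FLO11 and of glucose-repressed genes, rose by 3.56 ± 0.38 (SE; limma adjusted p 0.000169). MIT1, an activator of filamentous growth, rose by 2.24 ± 0.44 (0.00488), TUP1, the corepressor that NRG1 recruits, by 1.72 ± 0.35 (0.00588) and NRG2, a relative of NRG1, by 1.71 ± 0.53 (0.0448). ASH1, a factor of daughter cells needed for filamentous growth and the only one of the 17 that fell here, fell by 1.40 (adjusted p 0.00650). On slide 1 alone 4 rose (PHD1, NRG1, NRG2 and TUP1) and 1 fell (ASH1), with 13.3% of all genes called. Without JP1 at T0h 3 rose (PHD1, NRG1 and MIT1; 7.02% of all genes called) and without CAT-1 at T0h 2 rose (NRG1 and NRG2; 9.73%), with 0 falling in either.

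NRG1 was at 3.73 and 3.21 in CAT-1, 2.11 and 1.59 in JP1 and 3.07 in BY4741 at T6h, against -0.80, -1.0 and -2.05 in CAT-1, JP1 and PE-2 at T0h. Every T6h value of NRG1 was above every T0h value, the BY4741 array included. MIT1 was at 2.39 and 1.89 in CAT-1, 0.68 and 1.05 in JP1 and 0.07 in BY4741 at T6h, against -1.12, -0.35 and -1.03 at T0h in the same order of strains. Over all 8 arrays 5 of the 17 factors rose and 1 fell (9.72% of all genes were called higher and 5.93% lower), with NRG1 at 4.03 ± 0.48, MIT1 at 2.05 ± 0.48, NRG2 at 1.84 ± 0.44 and PHD1, an activator of filamentous growth, at 1.61 ± 0.34. On slide 1 alone 3 rose (PHD1, NRG1 and NRG2) and 1 fell (ASH1).

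At T0h 10 of the 17 factors were lower in the industrial strains than in BY4741. None of the 17 passed the test in the other direction (median -0.80, against 0.00 over all genes, of which 17.5% were called lower). PHD1 was lower by -1.56 ± 0.19, ASH1 by -1.31 ± 0.18, NRG1 by -1.28 ± 0.26 and TEC1, the partner of STE12 on FLO11, by -0.94 ± 0.23 (limma adjusted p 0.00359, 0.00510, 0.0135 and 0.0242). Without CAT-1 at T0h 4 of the 17 were lower (TEC1, PHD1, NRG1 and ASH1), against 8.96% of all genes called, and without PE-2 or JP1 at T0h 10 and 9 were. None of the 17 was called between CAT-1 and JP1, between the industrial strains and BY4741 at T6h, or in the comparisons of time changes.

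**Figure D4:**
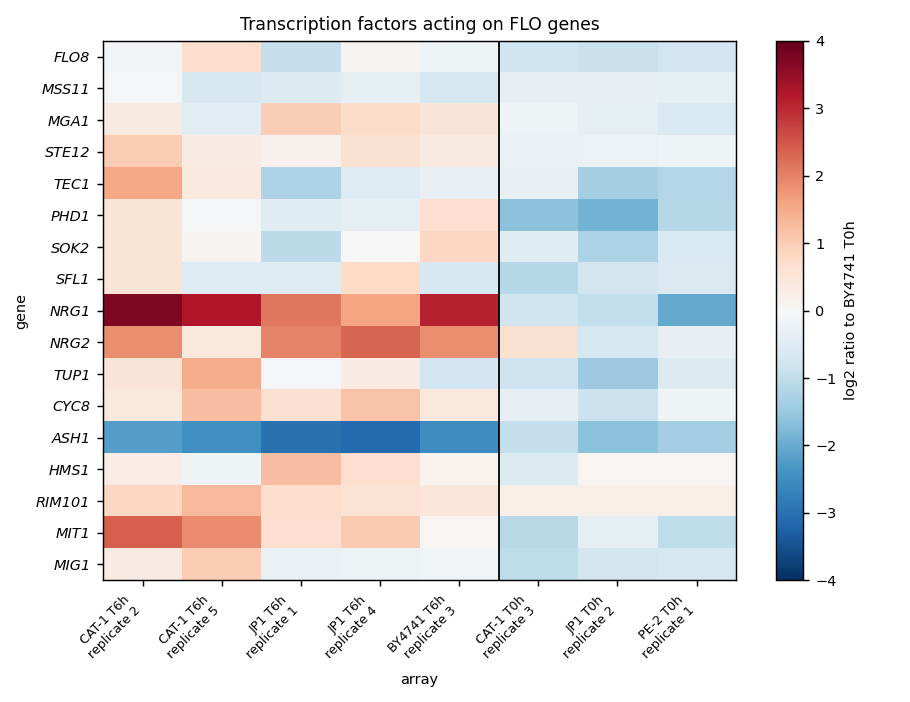
Log2 ratio to BY4741 at T0h of 17 transcription factors that act on FLO genes (rows) on each array (columns, T6h left of the line and T0h right of it), red above and blue below 0. NRG1 was at 1.59 to 3.73 on the T6h arrays and at -2.05 to -0.80 on the T0h arrays, and ASH1 was below 0 on all 8.

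Calls with time in the pathways upstream are to be read against 19.7% of all genes called in JP1 and CAT-1. Over all 8 arrays that share was 15.6%. Of 11 genes of the filamentation MAP kinase cascade, 2 rose in JP1 and CAT-1 and 0 fell: MSB2, the signalling mucin at its top, by 1.60 ± 0.30, and DIG1, an inhibitor of STE12 at its end, by 1.41 ± 0.31 (limma adjusted p 0.00434 and 0.00921). Both also rose on slide 1 alone, while without JP1 at T0h MSB2 alone rose and without CAT-1 at T0h DIG1 alone. Of 14 genes of cAMP and protein kinase A, 0 were called within JP1 and CAT-1, and over all 8 arrays PDE1, a cAMP phosphodiesterase, rose by 1.04 ± 0.30 (adjusted p 0.0344), which was not called on slide 1 alone. The time change in JP1 and CAT-1 was higher than in BY4741 for BCY1, the regulatory subunit of the kinase, by 2.32 ± 0.55 and for TPK2, a catalytic subunit, by 1.90 ± 0.49 (adjusted p 0.0402 and 0.0498), in a contrast where 3.57% of all genes were called higher. That contrast holds 1 BY4741 array, on which these were at -2.05 and -2.16, and on slide 1 alone 0 of the list were called, with 0.370% of all genes called. Of 6 genes of the Snf1 kinase and 8 of chromatin, 0 were called with time.

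At T0h the same pathways differed between the industrial strains and BY4741 in both directions. In cAMP and protein kinase A, 5 of 14 were lower and 2 higher, among them RAS2 (-1.27 ± 0.22), the G protein subunit GPA2 (-1.05 ± 0.16) and TPK3 (0.86 ± 0.18), with a list median of -0.15. In the MAP kinase cascade 4 of 11 were lower and 1 higher, led by DIG1 (-1.53 ± 0.19), the kinase STE20 (-0.85 ± 0.24), the kinase STE11 (-0.65 ± 0.18) and OPY2 (-0.61 ± 0.18), with a median of 0.01. In the Snf1 kinase list SIP2, a beta subunit, was lower (-1.46 ± 0.18) and SNF4, the activating subunit, higher (0.87 ± 0.15; limma adjusted p 0.00357 and 0.00876). Of 8 chromatin genes, the deacetylase gene HST2 (-1.70 ± 0.25) and SNF2 (-1.02 ± 0.21) were lower and SWI1, which like SNF2 encodes a subunit of a remodelling complex, higher (1.04 ± 0.16). With 32.7% of all genes called here, the shares called in the signalling lists, 7 of 14, 5 of 11, 2 of 6 and 3 of 8, are to be read against that figure. Without CAT-1 at T0h the last 3 lists held 1 called gene each (DIG1, SIP2 and HST2, all lower), against 8.96% of all genes.

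Other adhesins of the wall showed no called difference in any of the 7 comparisons: AGA1, AGA2, SAG1 and FIG2, the agglutinins and their relative of mating cells, were tested in each. FIG2 was called higher at T0h when PE-2 was left out. Their medians were -0.22 for time in JP1 and CAT-1 and -0.06 at T0h. Of 4 open reading frames that resemble parts of FLO genes, YAL065C was higher in the industrial strains at T0h by 1.14 ± 0.24 (SE; limma adjusted p 0.0151), with ratios of 0.80 in CAT-1, 1.82 in JP1 and 0.80 in PE-2, and was not called without CAT-1 at T0h. YAR061W, YAR062W and YHR213W were called in none of the 7. YAR061W stood at 1.97 in JP1 T6h replicate 1 and at 0.30 in replicate 4, so its replicates were far apart.

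Of the genes next to the 6 on the chromosome, 8 had a probe. GDH3, a glutamate dehydrogenase gene beside FLO9, was lower in the industrial strains at T0h (-1.98 ± 0.19, limma adjusted p 0.00211) and lower at T6h in JP1 and CAT-1 (-1.11 ± 0.33, 0.0392). SIR1, a silencing gene beside FLO10, was higher in the industrial strains at T0h (0.84 ± 0.16, adjusted p 0.0101). SWH1 and YAR061W beside FLO1, YHR210C beside FLO5, NFT1 beside FLO10, and GLE2 and KAP123 beside FLO8 were called in neither. Of all genes, 32.7% were called at T0h and 19.7% with time in JP1 and CAT-1. FLO9 and GDH3, and FLO10 and SIR1, had mean differences of opposite sign at T0h, though FLO9 and FLO10 were not called there.

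The flocculin genes and FLO8 did not follow each other closely across the 8 arrays, which share 1 reference and, for 6 of them, 1 slide. The Pearson correlation of log2 ratios was 0.84 between FLO5 and FLO8, 0.80 between FLO5 and FLO10, 0.71 between FLO1 and FLO10 and 0.61 between FLO1 and FLO5. FLO9, in spite of its likeness in sequence, was at -0.40 with FLO5 and -0.18 with FLO1, and at 0.65 with FLO11. FLO11 was at -0.10 with FLO8. On the 6 arrays of slide 1 these were 0.82, 0.80, 0.76, 0.72, -0.20, 0.10, 0.78 and -0.13.

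The named genes whose ratios ran most like each member over the 8 arrays were, for FLO11, the deacetylase gene HST3 (r 0.942), the purine synthesis gene ADE6 (0.938) and the autophagy kinase gene ATG1 (0.926). For FLO5 they were the aquaporin gene AQY1 (0.970), REB1 (0.957) and APJ1 (0.934), and for FLO1 the kinase gene VHS1 (0.953), RED1 (0.928) and ADE17 (0.916). FLO9 ran most like VAR1 (0.925), RAX1 (0.924) and GTO3 (0.897), FLO10 like HSL7 (0.968), SHU1 (0.945) and FPT1 (0.942), and FLO8 like CAF4 (0.982), BUD6 (0.966) and COS8 (0.963). These are the highest of many correlations, each over 8 points, and describe these arrays alone.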

How the data were processed

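Total RNA of 8 samples was measured against a common BY4741 T0h reference on two-colour Agilent arrays, 1 sample per array. Per the file headers, the authors extracted spots with Agilent Feature Extraction 10.10.1.1. The deposited files hold spot medians, local backgrounds and processed signals as intensity, a log10 ratio of red over green, and marks for background, saturation and outliers. The deposited value table, whose unit is not given in the sources used here, was used in no comparison. The submitters' processing notes name limma without a version. No label gives swapped dyes, so dye bias could not be cancelled.

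Spot medians (the files hold no means) were corrected for background (normexp, offset 50), normalised within arrays by loess and turned into log2 ratios from the deposited intensity values. The 2 spots of a probe were averaged. Of 6256 gene probes, 5938 were well above background in either colour on at least 3 arrays. Differences were tested in R 4.3.3 with limma 3.58.1 (lmFit and eBayes), two-sided, and p-values were adjusted after Benjamini and Hochberg over the 5938 kept genes (threshold 0.05). The low number of arrays limits the precision.

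The members and the gene lists were chosen with earlier results of these data known. In each list at most 4 called genes per comparison were named, in order of size, and other names, such as ASH1 and those on slide 1 alone or without an array, were chosen after their values were seen. Values of 1 list gene are not reported here. Genes alike were the 3 with the highest Pearson correlation over the 8 arrays among genes with a name in the RefSeq table, which held 5756 of the systematic names and lacked 500. Alternatives were other normalisations, offsets and filters, slide as a block or slide 1 alone, and leaving out each array. The red channel alone, and the list counts on slide 1 alone or without a T0h array, were added after the data were seen. The main fit of each of the 7 comparisons was tested on simulated data. That test did not cover background correction, normalisation or the alternative fits.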

Additional observations from a re-analysis of the deposited data

Results flagged for a closer look

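The time change of FLO10 went apart between the strains: both CAT-1 T6h arrays lay above CAT-1 at T0h, by 1.22 and 0.93 on the log2 scale, and both JP1 T6h arrays lay just below JP1 at T0h, at -0.02 and -0.03. The difference between the time changes was 1.1 ± 0.59 (SE; limma adjusted p 0.944), so it was flagged by its direction alone and did not pass the test. The arrays with the values of 0.93 and -0.03 are those on slide 2, where the reference of FLO10 was not well above background.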

How the results depend on the processing

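Of 588 alternative values for single flocculin genes, 535 kept direction and side of the threshold, 14 lost a call, 15 gained one and 24 turned sign, and the cause was not tested. The 588 include Aquantile, which leaves ratios as they are, and keeping marked spots, of which these genes had none. Such values could hardly change, so part of the 535 was fixed in advance. Leaving out CAT-1 at T0h ended all 3 calls of industrial strains against BY4741 at T0h, where the count was 0 to 5 over arrays left out. Leaving out JP1 at T0h gave 5, adding FLO9 (0.73, adjusted p 0.0410) and FLO10 (-0.90, 0.0147). For time in JP1 and CAT-1 the 1 called gene, FLO11, was not called with the software's signals (-1.77, adjusted p 0.212), median centring (-1.48, 0.211), an offset of 16 (-1.60, 0.111) or the slide as a block (-1.24, 0.0952), each with 0 flocculin genes called, and the count was 0 to 2 over arrays left out. Over all 8 arrays 1 was called with the software's signals and 1 with an offset of 16 (FLO1), and 0 to 1 over arrays left out, FLO1 without CAT-1 at T0h and FLO5 without JP1 T6h replicate 1 (1.56, 0.0324). Between CAT-1 and JP1 the red channel alone called 2, FLO11 and FLO1 (0.91, 0.0424), and arrays left out gave 0 to 1, and for the difference of time changes 1 and 0 to 1.

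FLO9 turned sign for time over all arrays with median centring (0.047) and the red channel (0.049), and in JP1 and CAT-1 with the software's signals (0.038), the red channel (0.052) and the red channel on slide 1 (0.018). There, arrays left out gave -0.033 to 2.16 for FLO5 and -0.024 to 1.08 for FLO10, negative without CAT-1 at T0h. At T6h against BY4741, FLO9 turned with median centring (-0.039), and FLO8 with median centring (-0.041), the slide as a block or slide 1 alone (-0.32 each), the red channel (-0.26) and over arrays left out (-0.11 to 0.44). Between CAT-1 and JP1, FLO10 turned with the software's signals (-0.060), on slide 1 alone (-0.11) and over arrays left out (-0.18 to 0.37), where FLO1 gave -0.11 to 0.41. In the time changes, FLO1 turned in CAT-1 against JP1 with the red channel (0.51), and FLO9 in JP1 and CAT-1 against BY4741 with the software's signals (0.058) and over arrays left out (-0.92 to 0.17). Of 48 ratios on single arrays, 4 differed in sign from the software's own ratio, 1 of them on slide 1.

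Counts over all genes moved as follows. Over all 8 arrays the 929 genes became 439 with median centring, 292 with the strict filter, 1626 with the red channel and 446 to 1126 without 1 array. For time in JP1 and CAT-1 the 1167 became 549 with the software's signals, 339 with median centring, 370 with the strict filter, 2500 with the red channel and 417 to 1174 without 1 array. At T0h the 1939 became 252 with the strict filter and 532 to 1937 without 1 array. At T6h against BY4741 the 0 became 33 with the strict filter, 2 with the slide as a block, 142 with the red channel and 0 to 60 without 1 array. Between CAT-1 and JP1 the 6 became 1 with the software's signals, 3 with median centring, 39 with the strict filter, 0 on slide 1 alone, 293 with the red channel and 0 to 106 without 1 array. For the difference of their time changes the 0 became 35 with the strict filter, 400 with the red channel and 0 to 50 without 1 array. For time in JP1 and CAT-1 against BY4741 the 359 became 4 with the software's signals, 0 with median centring, 84 with an offset of 16, 109 with the strict filter, 28 with the slide as a block, 22 on slide 1 alone and 9 to 515 without 1 array. The strict filter tested fewer genes, and none of the 6 passed it. The software's signals moved the median of all genes by 0.11 for time in JP1 and CAT-1, 0.21 at T6h, -0.11 and 0.18 in the 2 comparisons of time changes, and median centring by 0.10 at T6h.

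Aquantile leaves ratios within an array as they are. The slide as a block could not be fitted at T0h, nor the difference of time changes on slide 1 alone or without a T0h array, nor contrasts with BY4741 at T6h without its array. Replicate numbers 1, 2 and 3 occur at both times, but on different strains, and arrays of the same number did not deviate together (Pearson -0.07, -0.14 and -0.15 between deviations from the means at T6h and T0h, over genes). With the replicate block, added after the data were seen, the time comparison over all arrays called 536 genes and 0 flocculin genes. In the other comparisons the groups share fewer than 2 numbers. Green signals at background on slide 2 limit every ratio of these genes there.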
